A study of Mus musculus with 12 samples.

Results

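The MHC class II presentation genes described here are 9 mouse genes picked by symbol from a table of 25230 genes: the antigen-binding chains H2-Aa, H2-Ab1 and H2-Eb1, the invariant chain Cd74, the peptide editors H2-DMa, H2-DMb1 and H2-DMb2, the transactivator Ciita, and the costimulatory ligand Cd86. All 9 were in the table, and all 9 passed the filter on low values, which asked for at least 1 TPM in at least 3 libraries and was passed by 11283 genes. TPM is a transcript abundance scaled to library size and gene length, so that levels of different genes can be compared. Polyadenylated RNA was sequenced from bone marrow derived macrophages, which are marrow cells from the femur and tibia of mice differentiated in culture with the growth factor M-CSF for 8 days. The 4 groups were wild-type cells given PBS, wild-type cells given the fungus Candida albicans, Piezo1 knockout cells given PBS and Piezo1 knockout cells given C. albicans, with 3 libraries each and 12 in all. For the knockout PBS group the treatment label reads PBS but the sample titles read DMSO, so a different vehicle cannot be told apart from the genotype effect with PBS, nor from the fungus in the knockout response and in the difference between the responses. The fold changes between the genotypes with C. albicans do not use those libraries, which enter only the shared estimate of the spread behind the p-values. The sources used here do not give the dose of fungus, the time of exposure, the age or strain of the mice, or how and in which cells the knockout was made. Separate animals or cultures behind the replicates are not stated either, so a p-value speaks only of the spread among these libraries, which may be technical.

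MHC class II molecules are pairs of an alpha and a beta chain that display peptides from engulfed material to CD4+ T cells. The invariant chain fills their groove until lysosomal proteases degrade it, and the H2-DM heterodimer then exchanges its last fragment for antigenic peptides. Ciita does not bind DNA itself but is recruited by factors sitting on the X and Y boxes of class II promoters, and in macrophages it is best known as an interferon gamma induced gene. Cd86 binds CD28 on the T cell and gives the second signal that a T cell needs beside the class II complex.

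The targeted gene, Piezo1, a mechanically gated cation channel, was read first as a check of the labels. Wild-type cells had 135 ± 4.69 TPM (SD, n = 3) after PBS and 137 ± 8.68 TPM after C. albicans, and knockout cells had 65.4 ± 2.72 and 64.9 ± 0.756 TPM, so its messenger was lower but still present in the libraries labelled knockout. Reads assigned to genes ran from 16400119 to 25741091 per library. The 8 macrophage markers all reached 1 TPM, and their summed level was 25736 to 26286 TPM in wild-type PBS, 21430 to 22558 in wild-type C. albicans, 15295 to 15525 in knockout PBS and 15566 to 15711 in knockout C. albicans libraries. Lyz2, the lysozyme of myeloid cells, held most of that sum and had means of 19698 TPM in wild-type PBS and 9099 TPM in knockout PBS libraries. The sums therefore mostly describe Lyz2. Cd68 alone had a higher mean in knockout PBS (3079 TPM) than in wild-type PBS libraries (2487 TPM). The rest had lower ones, such as Csf1r (1188 and 1359 TPM) and Adgre1 (942 and 1181 TPM). Among the wild-type C. albicans libraries, replicate 1 was unlike the others. Without it the genes called for the difference between the 2 responses numbered 2531 in place of 1563. The main fit and the ratio tests were also run without it, and calls of members that it changes are given both ways. Why this library differed was not tested.

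The class II chains and the invariant chain were higher in one group only, the knockout macrophages given C. albicans, while in wild type their means with the fungus were 91.8% to 99.1% of those with PBS and none passed the test. H2-Ab1, H2-Aa, H2-Eb1 and Cd74 stood at 134% to 162% of the knockout PBS mean and at 135% to 148% of the wild-type C. albicans mean. In bulk RNA, more cells that carry a messenger and more messenger per cell cannot be told apart.

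H2-Ab1 (gene 14961, chromosome 17, 34257689 to 34269419, plus strand, in GRCm38) encodes the beta chain of the I-A molecule. Its level was 115, 131 and 130.3 TPM in the wild-type PBS libraries and 111, 127 and 123 TPM in the wild-type C. albicans libraries. In the knockout it was 120.0, 116 and 123 TPM with PBS and 176, 180.4 and 177 TPM with C. albicans. The knockout C. albicans libraries lay above all 9 others, which overlapped across their 3 groups. On the log2(TPM + 1) scale, a scale that understates changes of low genes, the response of H2-Ab1 was 0.57 in the knockout (SE 0.06, limma with Benjamini-Hochberg adjustment over all tested genes, adjusted p = 2.5e-05) and -0.06 in wild type (adjusted p = 0.41, 95% interval -0.18 to 0.06). The doubt about the vehicle of the knockout PBS libraries touches each knockout response given here.

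H2-Aa (gene 14960, chromosome 17, 34282744 to 34287823, minus strand) encodes the alpha chain that pairs with it. Its level was 130.5, 120.4 and 129 TPM in wild-type PBS and 119, 131 and 126 TPM in wild-type C. albicans libraries. In the knockout it was 133, 124 and 129.6 TPM with PBS and 176, 181 and 188 TPM with C. albicans. Again only the knockout C. albicans libraries were high, with no overlap against any other group. The response was 0.50 in the knockout (limma adjusted p = 1.4e-05) and -0.01 in wild type (adjusted p = 0.83), and the 2 chains of I-A were at like levels per length in every group, with means of 125 to 182 TPM for H2-Aa and 119.7 to 178 TPM for H2-Ab1.

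H2-Eb1 (gene 14969, chromosome 17, 34305867 to 34316674, plus strand), the beta chain of the I-E molecule, was at a lower level. It stood at 56.9, 70.1 and 68.8 TPM in wild-type PBS and 51.7, 64.4 and 63.6 TPM in wild-type C. albicans libraries. The knockout libraries had 54.5, 56.7 and 51.1 TPM with PBS and 84.9, 90.1 and 88.1 TPM with C. albicans. The knockout C. albicans libraries were again above all others, and the knockout PBS libraries were the lowest group, their highest value lying just under the lowest of wild-type PBS. Its response in the knockout was 0.69 (SE 0.09, limma adjusted p = 0.00028), the largest of the 9 genes, against -0.12 in wild type (adjusted p = 0.28).

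Cd74, the invariant chain (gene 16149), was the most abundant of the 9. Its level was 292, 294 and 311 TPM in wild-type PBS and 260.0, 298 and 301 TPM in wild-type C. albicans libraries. Knockout libraries had 279.6, 281 and 305 TPM with PBS and 379, 399 and 385 TPM with C. albicans. The low wild-type C. albicans value belongs to replicate 1, which was also the lowest of its group for H2-Aa, H2-Ab1 and H2-Eb1. The response of Cd74 was 0.43 in the knockout (limma adjusted p = 0.00027) and -0.07 in wild type (adjusted p = 0.35).

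**Figure D1:**
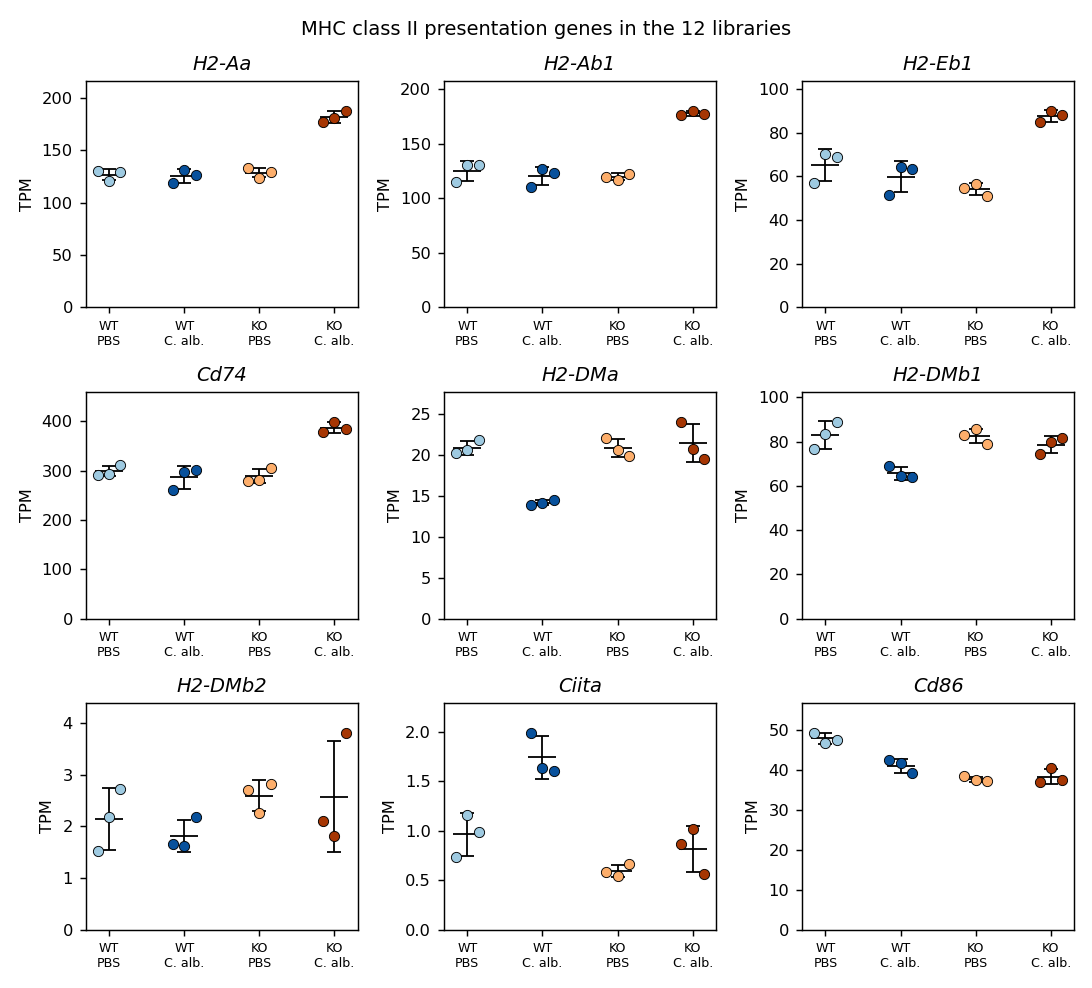
Level of each of the 9 genes in TPM (vertical axis, from 0) in the 12 libraries, by genotype and treatment (horizontal axis). Points are libraries, the long bar is the mean and the whiskers are 1 SD (n = 3). H2-Aa, H2-Ab1, H2-Eb1 and Cd74 are raised in the 3 knockout C. albicans libraries, H2-DMa and H2-DMb1 are low in the 3 wild-type C. albicans libraries, and Ciita is highest there.

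The peptide editors had another pattern: H2-DMa and H2-DMb1 fell with the fungus in wild type and did not pass the test in the knockout. H2-DMa (gene 14998, chromosome 17, 34119541 to 34139101, plus strand), the alpha chain of H2-DM, was at 20.2, 20.5 and 21.7 TPM in wild-type PBS and at 13.9, 14.0 and 14.5 TPM in wild-type C. albicans libraries. Knockout levels were 22.0, 20.6 and 19.8 TPM with PBS and 24.0, 20.7 and 19.5 TPM with C. albicans. The wild-type C. albicans libraries were the low ones, below all 9 others, and the other 3 groups overlapped. H2-DMa fell by 0.53 in wild type (SE 0.07, limma adjusted p = 7.5e-05), and its response in the knockout was 0.04 (adjusted p = 0.81, interval -0.12 to 0.19).

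H2-DMb1 (gene 14999, chromosome 17, 34153072 to 34160230, plus strand) encodes its beta chain. It was at 76.6, 83.3 and 89.0 TPM in wild-type PBS and at 69.2, 64.3 and 63.8 TPM in wild-type C. albicans libraries. The knockout libraries stood at 83.2, 85.5 and 78.9 TPM with PBS and at 74.6, 79.6 and 81.8 TPM with C. albicans. Here too the wild-type C. albicans libraries lay under all others. H2-DMb1 fell by 0.33 in wild type (limma adjusted p = 0.00059), with a value of -0.07 in the knockout (adjusted p = 0.52).

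H2-DMb2 (gene 15000, chromosome 17, 34143307 to 34151555, plus strand), a second beta chain gene beside it, was near the filter, at 1.53 to 3.81 TPM over the 12 libraries on 21 to 74 reads. Its groups overlapped in every comparison and it passed no test, with an adjusted p of 0.23 or more in all 5 comparisons and in the wild-type response a value of -0.15 (interval -0.57 to 0.28). An alignment of whole transcripts of H2-DMb1 and H2-DMb2 (1404 and 1424 bases) had 93.9% identical bases where both have one, so the split of reads between these copies is uncertain.

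Ciita (gene 12265, chromosome 16, 10480059 to 10528418, plus strand) rose with the fungus in wild type, where the class II chains did not pass the test, and was lower in the knockout given C. albicans, where those chains were higher. It was at 0.738, 1.16 and 0.987 TPM in wild-type PBS and at 1.99, 1.63 and 1.60 TPM in wild-type C. albicans libraries. In the knockout it was at 0.579, 0.547 and 0.664 TPM with PBS and at 0.864, 1.02 and 0.568 TPM with C. albicans. The wild-type C. albicans libraries were above all 9 others, the knockout PBS libraries were below all wild-type ones, and the 2 knockout groups overlapped. These levels rest on 30 to 98 reads per library, and 5 of 12 libraries reached 1 TPM.

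The response of Ciita in wild type was 0.48 (SE 0.15, limma adjusted p = 0.0192) and that in the knockout was 0.18 (adjusted p = 0.51, interval -0.14 to 0.50). The wild-type call was lost in 2 of 21 alternatives: without wild-type C. albicans replicate 1 the value was 0.42 (adjusted p = 0.059), and without wild-type PBS replicate 1 it was 0.40 (adjusted p = 0.069). On reads recovered from the TPM, where no 1 TPM is added, limma's voom fit gave 0.94 in wild type (adjusted p = 0.0014) and 0.47 in the knockout (adjusted p = 0.29). The authors' deposited table gives Ciita a log2 fold change of 0.93 (adjusted p = 0.00136) for what its values show to be C. albicans over PBS in wild type. In the same authors' deposited table H2-Aa has 0.07, H2-Ab1 has 0.02, Cd74 has 0.02 and H2-Eb1 has -0.04, none with an adjusted p under 0.05.

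Cd86 (gene 12524, chromosome 16, 36603869 to 36666081, minus strand) was highest in wild-type cells with PBS. It was at 49.3, 46.9 and 47.6 TPM in wild-type PBS and at 42.5, 41.7 and 39.2 TPM in wild-type C. albicans libraries. Knockout levels were 38.5, 37.5 and 37.2 TPM with PBS and 37.1, 40.6 and 37.4 TPM with C. albicans. The wild-type PBS libraries lay above all 9 others, and the 2 knockout groups overlapped. Cd86 fell by 0.22 in wild type (limma adjusted p = 0.0026) and its value in the knockout was 0.02 (adjusted p = 0.83). With the trend of fold change on gene length removed, the wild-type value was -0.11 (adjusted p = 0.053), and the authors' deposited table has -0.14 (adjusted p = 0.082).

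Counted over the 9 genes, the response in wild type had 1 member called higher and 3 called lower at an adjusted p under 0.05, where 16.1% of all tested genes were called higher and 28.3% lower. In the knockout 4 members were called higher and 0 lower, where 3.94% of tested genes were called higher and 3.14% lower. The members' median response was -0.12 in wild type, beside -0.07 over all tested genes, and 0.18 in the knockout, beside -0.04. The comparisons between genotypes given next use the same libraries as these responses.

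With C. albicans, 6 of the 9 genes were higher in the knockout than in wild type and Ciita was lower. H2-Ab1 differed by 0.57 (SE 0.06, limma adjusted p = 8.3e-06), H2-DMa by 0.56 (adjusted p = 5.4e-05), H2-Eb1 by 0.55 (adjusted p = 0.00034) and H2-Aa by 0.53 (adjusted p = 2.7e-06). Cd74 differed by 0.44 (adjusted p = 4.7e-05) and H2-DMb1 by 0.26 (adjusted p = 0.0036). Ciita was at 47.0% of its wild-type mean, with a log2 difference of -0.60 (SE 0.15, adjusted p = 0.0068). These 7 calls were kept in all 21 alternatives. For Ciita the value ranged from -1.05 on recovered reads to -0.41 with the gene length trend removed (limma adjusted p = 0.047). Without wild-type C. albicans replicate 1 it was -0.53. Without that library H2-Aa had 0.49, H2-Ab1 0.51, H2-Eb1 0.45, Cd74 0.37, H2-DMa 0.55 and H2-DMb1 0.29. H2-DMb2 (0.31, adjusted p = 0.23) and Cd86 (-0.10, adjusted p = 0.12) were not called, though Cd86 was without knockout C. albicans replicate 2 (-0.14, adjusted p = 0.047). Over all tested genes 12.4% were called higher and 27.5% lower in this comparison, and the members' median was 0.44 beside -0.05.

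With PBS, the genotypes differed for fewer of these genes: 0 members were called higher and 2 lower, where 6.14% of tested genes were called higher and 26.1% lower. Cd86 was at 78.7% of the wild-type mean (log2 difference -0.34, SE 0.05, limma adjusted p = 0.00021), and its 3 knockout libraries lay under the 3 of wild type. H2-Eb1 was at 82.9% (-0.26, adjusted p = 0.039), a call kept in 8 of 21 alternatives and lost, for example, with median-ratio scaling (-0.16, adjusted p = 0.23). Its call was also lost without wild-type PBS replicate 2 (-0.21, adjusted p = 0.14) or 3 (-0.22, adjusted p = 0.12), without any single knockout PBS library, and without knockout C. albicans replicate 2 or 3. Ciita stood at 62.0% of the wild-type PBS mean with no overlap, but its log2 difference of -0.29 had an adjusted p of 0.16. That value ranged from -0.59 to -0.09 over the alternatives, none of which called it, with -0.58 on recovered reads (voom adjusted p = 0.11) and -0.09 with the gene length trend removed. H2-Aa (0.02), H2-Ab1 (-0.06), Cd74 (-0.05), H2-DMa (-0.001) and H2-DMb1 (-0.005) had intervals within 0.19 of 0 on either side. The members' median was -0.05, beside -0.08 over all tested genes.

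**Figure D2:**
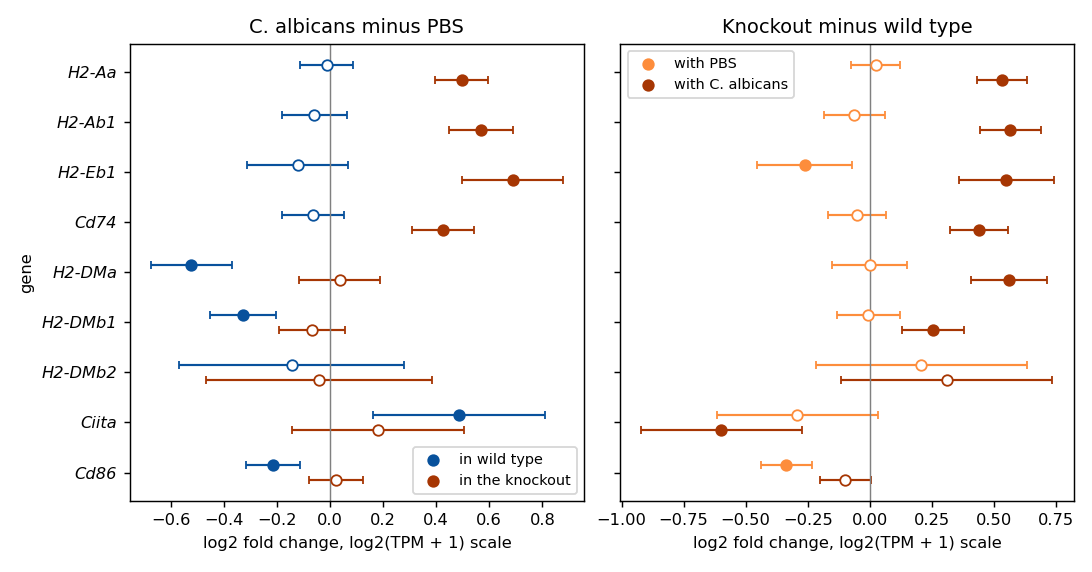
Log2 fold changes of the 9 genes on the log2(TPM + 1) scale (horizontal axes) for C. albicans minus PBS in each genotype (left) and for knockout minus wild type with each treatment (right). Bars are 95% intervals from limma, and filled points passed an adjusted p under 0.05. H2-Aa, H2-Ab1, H2-Eb1 and Cd74 respond in the knockout (0.43 to 0.69) and H2-DMa and H2-DMb1 in wild type (-0.53 and -0.33), and Ciita lies on the opposite side from them in the right panel, at -0.60.

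The difference between the 2 responses, knockout minus wild type, was tested directly as an interaction. It was called for 6 of the 9 genes, all with a higher value in the knockout, where 7.52% of tested genes were called higher and 6.33% lower. It was 0.81 for H2-Eb1 (SE 0.12, limma adjusted p = 0.0011), 0.63 for H2-Ab1 (adjusted p = 0.00029), 0.51 for H2-Aa (adjusted p = 0.00030) and 0.49 for Cd74 (adjusted p = 0.0012). H2-DMa had 0.56 (adjusted p = 0.0028), made by the fall in wild type. These 5 calls were kept in all 20 alternatives. Without wild-type C. albicans replicate 1 the values were 0.71 for H2-Eb1, 0.57 for H2-Ab1, 0.47 for H2-Aa, 0.42 for Cd74 and 0.55 for H2-DMa. Cd86 had 0.24 (adjusted p = 0.033), called in 10 of 20 alternatives, and H2-DMb1 had 0.26 (adjusted p = 0.052), called in 4 of 20. Removal of wild-type C. albicans replicate 1 gave H2-DMb1 0.30 (adjusted p = 0.019) and Cd86 0.26 (adjusted p = 0.014), while Cd86 missed the threshold without any one of 8 other libraries (adjusted p from 0.053 to 0.082). These were wild-type PBS replicates 1 and 3, wild-type C. albicans replicates 2 and 3, the 3 knockout PBS libraries and knockout C. albicans replicate 2. The interaction of Ciita was -0.30 (adjusted p = 0.38, interval -0.76 to 0.15) and -0.48 on recovered reads (adjusted p = 0.37), so a difference between its 2 responses was not detected at this depth. The members' median was 0.49, beside 0.02 over all tested genes.

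Some of these genes carry the letters through which Ciita is recruited. The promoter windows of RefSeq (GRCm38.p6), from 250 bases before a transcript start to 50 after it, were used for 5 of the members: H2-Aa, H2-Eb1, H2-DMa, H2-DMb1 and H2-DMb2. They were searched on both strands for TGATTGG (Y box core, the CCAAT letters read by NF-Y), AACNGATG (X box core, in the RFX site) and TGACGTCA (the palindrome read by CREB), letters that were chosen after these windows had been seen. The stretches that hold a Y box core with the element upstream of it are shown 5′ to 3′ on the gene's strand, with the matches in capitals and no 2 matches overlapping, because their spacing is what the class II genes share.
H2-Aa: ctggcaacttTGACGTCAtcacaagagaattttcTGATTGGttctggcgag
H2-Eb1: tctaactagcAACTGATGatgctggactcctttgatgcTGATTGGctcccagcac
H2-DMb1: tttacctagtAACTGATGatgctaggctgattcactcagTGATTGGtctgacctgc
H2-DMb2: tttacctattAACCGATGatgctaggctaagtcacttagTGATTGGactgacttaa

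These stretches are chr17:34287857-34287907 on the minus strand for H2-Aa, and on the plus strand chr17:34305768-34305822 for H2-Eb1, chr17:34153089-34153144 for H2-DMb1 and chr17:34145118-34145173 for H2-DMb2. The Y box core lay 20 bases after the X box core in H2-Eb1 and 21 bases after it in H2-DMb1 and H2-DMb2, and in H2-Aa it lay 16 bases after the CREB palindrome. Of 32817 windows of this length in the mouse table, 7.8% held the Y box core, 2.32% the X box core, 1.79% the palindrome and 0.183% both the X and the Y box core. The 2 windows of H2-DMa held none of the 3 letter strings. For the members, windows on chromosome 18, which holds Cd74, were left out of the search. No window was used for H2-Ab1, Ciita or Cd86 either. H2-Eb1, which rose in the knockout, and H2-DMb1, which fell in wild type, had the same X box letters, so the letters found did not separate these patterns. A match is a description of the sequence, and binding was not measured.

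Whether Ciita follows its targets was read in each library from the log2 ratio of H2-Ab1 to Ciita, each with 1 TPM added. The ratio was 6.05, 5.93 and 6.05 in wild-type PBS and 5.22, 5.60 and 5.57 in wild-type C. albicans libraries. In the knockout it was 6.26, 6.25 and 6.22 with PBS and 6.57, 6.49 and 6.83 with C. albicans. So the ratio was low in wild-type cells with the fungus and high in the knockout with it, and no 2 groups overlapped. It was a mean of 0.70 higher in the knockout over both treatments (exact two-sided permutation of genotype within treatment, 400 arrangements, p = 0.005, the smallest these can give, adjusted to 0.01 over 2 tests). Over both genotypes, the effect of the fungus was -0.08 (exact permutation p = 0.675), a mean of movements in opposite directions. The fungus moved the ratio by 0.93 more in the knockout than in wild type (exact permutation p = 0.1, a test added after the values were seen). That test shuffled genotype within treatment, and so also shuffled the genotype difference itself, which was present with both treatments. Its p-value and those of its variants below therefore cannot decide whether the responses of the ratio differ. Without wild-type C. albicans replicate 1 that difference between the responses was 0.81 (exact permutation p = 0.185, 200 arrangements). The genotype difference was then 0.64 (exact permutation p = 0.005). With H2-Eb1 in the place of H2-Ab1 the genotype difference was 0.59 (exact permutation p = 0.035, adjusted 0.07), and with H2-Aa and Cd74 it was 0.72 and 0.64, both at the smallest p. The size of the ratio depends on the TPM added, since Ciita is near 1 TPM: with 0.1 added the genotype difference was 1.07 (exact permutation p = 0.005), the effect of the fungus -0.33 (p = 0.2) and the difference between the responses 1.07 (p = 0.17).

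**Figure D3:**
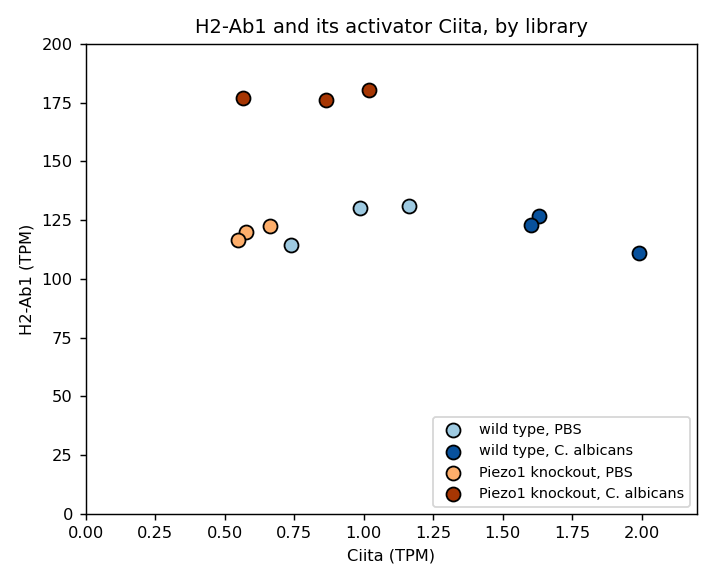
H2-Ab1 (vertical axis, TPM) against Ciita (horizontal axis, TPM) in the 12 libraries, 1 point each, coloured by genotype and treatment. The wild-type C. albicans libraries have the highest Ciita (1.60 to 1.99 TPM) at an H2-Ab1 of 111 to 127 TPM, while the knockout C. albicans libraries have the highest H2-Ab1 (176 to 180.4 TPM) at a Ciita of 0.568 to 1.02 TPM.

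A likeness measure describes the same values again, so the split it shows among the members is no separate support. Each tested gene's log2(TPM + 1) was centred on its mean over the 12 libraries, and its mean absolute difference from H2-Ab1 was ranked over the 11282 other genes. H2-Aa was nearest (0.06), Cd74 came next (0.06) and H2-Eb1 was at rank 3 (0.07). The next genes after these members were Lsm7 (0.10) and Rapsn (0.12). H2-DMb2 was at rank 3405, H2-DMb1 at 3780, H2-DMa at 4167, Cd86 at 4775 and Ciita at 9694. A gene with no change at all would have a difference of 0.21, and 969 of the 11282 genes were nearer to H2-Ab1 than that. Most genes were thus farther than a flat line, among them H2-DMa, H2-DMb1, H2-DMb2 and Cd86 (0.24 to 0.26) and Ciita (0.35). With a pseudocount of 0.1, H2-Aa, Cd74 and H2-Eb1 had the same ranks and Ciita was at rank 10597.

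**Figure D4:**
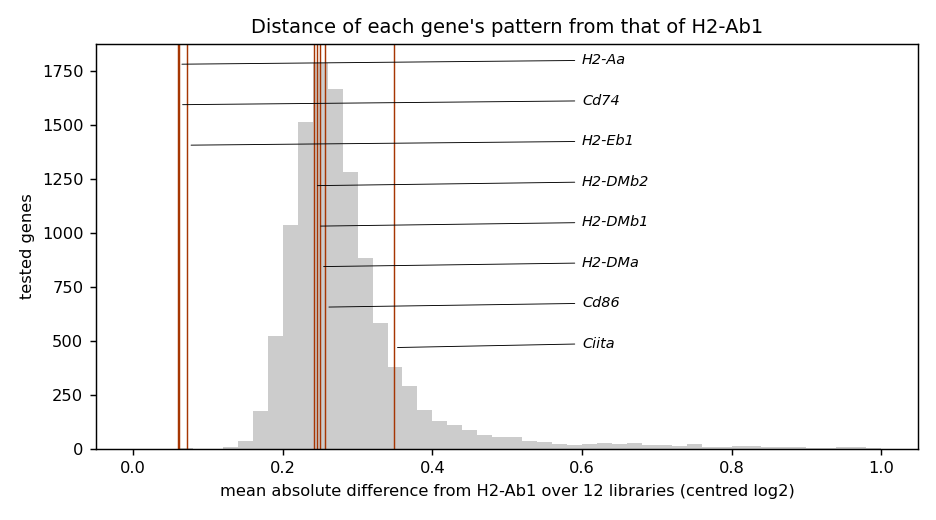
Histogram of the mean absolute difference between each tested gene and H2-Ab1 over the 12 libraries (horizontal axis, centred log2(TPM + 1), drawn up to 1), with the number of genes on the vertical axis and the members as lines. H2-Aa, Cd74 and H2-Eb1 lie at 0.06 to 0.07, left of the bulk of genes, and Ciita lies at 0.35, on its right side.

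Genes that act with Ciita or upstream of it were counted from lists. Of 15 tested class II regulators, in wild type 5 rose and 2 fell with the fungus, and in the knockout 1 rose. Over all tested genes 16.1% rose and 28.3% fell in wild type, and 3.94% rose in the knockout. Irf1, an interferon-induced factor that acts on a Ciita promoter, rose by 1.35 in wild type (limma adjusted p = 7.4e-09) and by 1.13 in the knockout (adjusted p = 1.6e-07). Rfx5, a subunit of the X box complex, rose in wild type (0.51, adjusted p = 0.00054) and had 0.31 in the knockout (adjusted p = 0.052). Irf8, a factor of the macrophage lineage, fell in wild type (-0.62, adjusted p = 4.2e-07), with -0.13 in the knockout (adjusted p = 0.11). It was the list's 1 gene called for the difference between the responses (0.49, adjusted p = 0.00041). Of all tested genes 7.52% were called higher and 6.33% lower for that difference.

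With C. albicans, 1 of these 15 regulators was higher in the knockout (Irf8) and 7 were lower, beside 12.4% and 27.5% of all tested genes. The lower ones included the acetyltransferases Crebbp (-0.82, limma adjusted p = 1.5e-05) and Ep300 (-0.62, adjusted p = 5.3e-07), which bind Ciita, and also Irf1 (-0.55, adjusted p = 4.2e-05) and Creb1 (-0.43, adjusted p = 0.00063). Removal of the gene length trend ended the call of Creb1. The list's median was -0.16, against 0.44 for the members and -0.05 over all genes. With PBS, 0 of the 15 were higher in the knockout and 6 were lower, beside 6.14% and 26.1% of all tested genes. Ep300 (-0.48) and Crebbp (-0.57) were among the lower ones.

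Genes of the interferon gamma pathway, the known inducer of Ciita, were mostly lower in the knockout given C. albicans, as Ciita was. Of 8 tested genes (Irf1 is also in the list of regulators), 4 rose and 1 fell in wild type and 1 rose in the knockout. In the knockout with C. albicans 7 were lower. The shares of all tested genes were 16.1%, 28.3%, 3.94% and 27.5%, in that order. The kinase Jak2 rose in wild type by 0.80 (limma adjusted p = 0.00019), had 0.18 in the knockout (adjusted p = 0.39), and differed by -0.87 between knockout and wild type with C. albicans (adjusted p = 0.00012). The receptor chain Ifngr1 differed there by -0.27 (adjusted p = 0.0002). Jak1 differed by -0.30 (adjusted p = 1.3e-05), a call lost with the gene length trend removed. Ifng itself was listed at 0 in 3 groups, with a mean of 0.0556 TPM in wild-type C. albicans.

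The proteases and other enzymes that prepare the peptides and the invariant chain mostly fell with the fungus in wild type. Of 8 tested, 7 fell and 1 rose in wild type, where 28.3% of all tested genes fell and 16.1% rose. In the knockout 4 fell, where 3.14% of all tested genes did. In the knockout with C. albicans 6 were higher and 1 lower, beside 12.4% and 27.5% of all tested genes. For the difference between the responses 5 were called higher and 1 lower, beside 7.52% and 6.33% of all tested genes. Ifi30, the lysosomal thiol reductase, fell by 0.59 in wild type (limma adjusted p = 2.9e-09) and by 0.22 in the knockout (adjusted p = 0.00015), a difference of 0.36 (adjusted p = 6.3e-05). Legumain, encoded by Lgmn, fell by 0.35 in wild type and had -0.02 in the knockout (difference 0.33, adjusted p = 0.0029). With PBS, where H2-DMa did not differ beyond its error, 3 were already higher in the knockout (Ctsl 0.24, Ctsd 0.15 and Ctss 0.12) and 2 lower (Lgmn and Sppl2a). The shares of all tested genes with PBS were 6.14% and 26.1%. The 1 gene that rose was Sppl2a, the protease that clears the last membrane stub of the invariant chain, which rose in wild type (0.22, adjusted p = 0.0038) and was lower in the knockout with C. albicans (-0.43, adjusted p = 2.9e-05).

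Other genes of the MHC region were counted from a list of class II neighbours that also holds the class I gene H2-Q4. Of 6 tested, 2 rose and 4 fell in wild type and 1 fell in the knockout, beside 16.1%, 28.3% and 3.14% of all tested genes. In the knockout with C. albicans 1 was higher and 2 were lower, beside 12.4% and 27.5% of all tested genes. Values ran from -0.30 (Brd2) to 0.15 (Psmb8). Tap1, a peptide transporter subunit encoded in the MHC region, had -0.05 (limma adjusted p = 0.33). Among the 7 tested genes of class II turnover and trafficking, Marchf1, a ubiquitin ligase that marks class II molecules and Cd86 for degradation, fell in wild type (-0.48, adjusted p = 3.4e-05) and was lower in the knockout with PBS (-0.49, adjusted p = 7.1e-05). With C. albicans it did not pass between genotypes (-0.08, adjusted p = 0.28). Of those 7 genes, 2 were higher and 2 lower in the knockout with C. albicans, beside 12.4% and 27.5% of all tested genes. Among the lower ones, Marchf8 (-0.16, limma adjusted p = 0.028) lost its call in 8 alternatives. These were both other scalings, only the groups compared, the gene length trend removed, voom, and the fits without wild-type C. albicans replicate 1 or knockout C. albicans replicate 1 or 3.

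Cd86 differed from the other costimulatory and co-inhibitory ligands. All 7 tested ligands rose with the fungus in wild type, where Cd86 fell, and 5 rose in the knockout. Of all tested genes 16.1% rose in wild type and 3.94% in the knockout. Icam1, an adhesion ligand, rose by 1.96 in wild type (limma adjusted p = 1.5e-11) and 1.26 in the knockout (adjusted p = 4.7e-09), and Cd40, the receptor for T cell help, rose by 1.83 and 0.86. Of the 7, 6 were lower in the knockout with C. albicans, beside 27.5% of all tested genes. Among them were Cd274 (-0.49), Tnfsf4 (-1.37) and Cd40 (-1.30). The difference between responses was called for 5, all with the lower value in the knockout, beside 6.33% of all tested genes. For Cd86 that difference had the opposite sign, 0.24. Cd80, the other ligand of CD28, had 0.37 in wild type (adjusted p = 0.0023) and 0.35 in the knockout (adjusted p = 0.020).

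**Figure D5:**
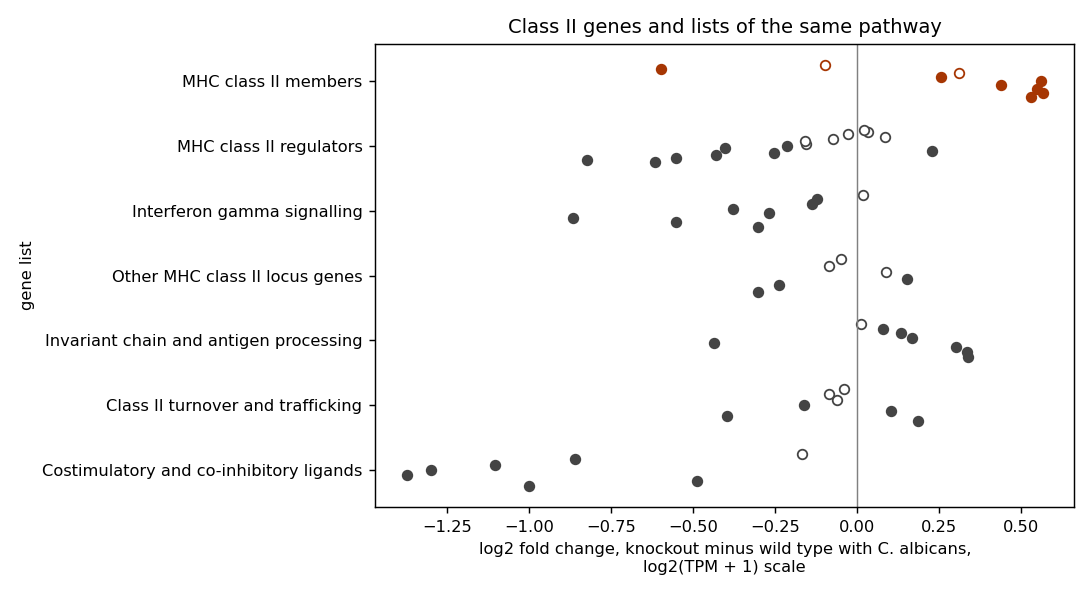
Log2 fold changes, knockout minus wild type with C. albicans (horizontal axis, log2(TPM + 1) scale), of the 9 members and of the tested genes in 6 lists of the same pathway (rows). Filled points passed an adjusted p under 0.05 in limma. Of the members 6 filled points lie right of 0 and Ciita left of it, and the costimulatory ligands lie at -1.37 to -0.17.

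Markers of other cells that express class II genes were at low levels. Of 10 dendritic cell markers, Cd209a was at 0 everywhere, Flt3 and Zbtb46 had group means of at most 0.143 TPM, and the summed level was 4.44 to 5.80 TPM in knockout PBS and 4.73 to 6.64 TPM in knockout C. albicans libraries, which overlap. Those in wild type summed to 6.82 to 8.36 TPM with PBS and 4.82 to 6.58 TPM with C. albicans. The 7 B cell markers summed to 14.2 to 17.2 TPM in knockout PBS, 14.4 to 14.9 TPM in knockout C. albicans, 17.5 to 18.8 TPM in wild-type PBS and 10.2 to 14.0 TPM in wild-type C. albicans libraries. The knockout C. albicans sums thus lay within the range of knockout PBS and above wild-type C. albicans, as the class II chains and H2-DMa did in the latter comparison, and their part in that result was not tested. Most of that sum was Cd22, and Cd79a, part of the B cell receptor, had a mean of 1.36 TPM in wild-type PBS and of 0.206 to 0.599 TPM in the other groups. The 5 T and NK cell markers in the table summed to at most 1.75 TPM, with Cd3e at 0, and the 6 neutrophil markers to at most 7.73 TPM, with S100a9 and Ly6g at 0.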

How the data were processed

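Per the file headers and the labels, the authors deposited 1 table of TPM per gene and library, with gene IDs, a mean of normalised reads over libraries (a signal), and log2 fold changes, their standard errors, a test score, and p-values for 1 comparison. Its values match C. albicans over PBS in wild type (median absolute difference of 0.000852 log2 units over 8242 genes). The submitters' processing notes name the mm10 build and the tools STAR 2.7.5a, DESeq2 1.34.0, cutadapt 2.6 and CASAVA 1.8. The counting method, strand setting and annotation release were not given in the sources used here, so reads of overlapping or antisense genes may be mixed. The 28 rows with a gene ID but no symbol kept their ID.

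Genes were taken by symbol, and positions from GENCODE M21 (GRCm38) by symbol. The fixed design names limma on log2(TPM + 1) with all 12 libraries and 1 mean per group, since TPM are not counts. It was run with limma 3.58.1 in R 4.3.3, with a variance trend and no robust estimation, on genes that reached 1 TPM in 3 or more libraries. Benjamini-Hochberg adjustment of two-sided p-values ran over all tested genes of a comparison, with a threshold of 0.05. Whole reads were recovered from the TPM: 100% of 73175 values under 200 reads came within 0.01 of a whole number. An added voom fit on these reads called 4730 genes for the wild-type response, 1016 for that of the knockout, 3269 and 4827 for the knockout effect with PBS and with C. albicans, and 1917 for the interaction. The ratio tests permuted labels within strata. Intervals are 95% intervals. The fit was tested on simulated data. Alternatives were another pseudocount, filter, scaling and variance model, only the groups compared, removal of the gene length trend, a replicate block and leaving out each library. The members and lists were chosen with earlier results of these data known. Every member is named, and up to 4 genes per list and comparison by smallest p, from which the examples were picked after their values were seen; Sppl2a in wild type, Sppl2a with PBS, Irf8 between genotypes with C. albicans, Lgmn and Jak2 in the knockout, Tap1, Marchf1 and Cd80 in single comparisons fall outside that and were chosen after their values were seen.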

Additional observations from a re-analysis of the deposited data

Results flagged for a closer look

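For 6 of the 9 genes the response to C. albicans differed between the genotypes by the limma interaction test, on the log2(TPM + 1) scale. The knockout response exceeded the wild-type one by 0.81 for H2-Eb1 (adjusted p = 0.0011), 0.63 for H2-Ab1 (adjusted p = 0.00029), 0.51 for H2-Aa (adjusted p = 0.0003) and 0.49 for Cd74 (adjusted p = 0.0012). In these the knockout rose and wild type did not pass the test. The excess was 0.56 for H2-DMa (adjusted p = 0.0028) and 0.24 for Cd86 (adjusted p = 0.033), where wild type fell and the knockout did not pass the test.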

How the results depend on the processing

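Over 45 results of single members and 936 alternatives, 905 kept the call, 26 lost it, 5 gained it and 0 reversed a called direction, and 39 changed the sign of a value that was not called. The members called for the knockout effect with PBS numbered 1 in place of 2 with no filter, no variance trend, median-ratio or upper-quartile scaling, the gene length trend removed, and voom, and 1 to 2 with single libraries left out. The other counts of members stayed within 1.5 times, at 3 to 4 (wild type), 4 (knockout), 7 to 8 (knockout effect with C. albicans) and 5 to 7 (interaction) with single libraries left out. With H2-Eb1 in place of H2-Ab1 the genotype difference in the ratio to Ciita was 0.59. For 95 results of pathway genes and 1980 alternatives, 1843 kept the call, 136 lost it and 1 reversed: Brd2 had 0.0066 for the knockout effect with PBS with the gene length trend removed, and the cause was not tested.

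Counts over all genes moved more. For the response in the knockout 799 genes became 1350 with only the groups compared and 1487 without wild-type C. albicans replicate 1, and 420 to 532 without knockout PBS replicate 1 or 3 or any 1 knockout C. albicans library. For the interaction 1563 became 1036 without knockout PBS replicate 1. For the knockout effect with PBS 3641 became 1803 with the gene length trend removed. Median-ratio scaling changed the higher and lower calls from 1814 and 3192 to 2576 and 2066 (wild type), from 445 and 354 to 611 and 172 (knockout), from 693 and 2948 to 1606 and 1595 (PBS), from 1402 and 3101 to 2172 and 2455 (C. albicans), and from 849 and 714 to 663 and 946 (interaction), moving the median of all genes by under 0.1. Likeness lists shared 6 of 8 genes for H2-Ab1 and 0 of 8 for Ciita with a pseudocount of 0.1.

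Replicate numbers did not pair the samples (correlations of same-numbered libraries from -0.0874 to 0.0871, none of 18 over 0.1, and 5 of 18 best with their own number). With the replicate block the members called were 4, 4, 2, 7 and 6, as without it. Ciita and H2-DMb2, at 21 to 98 reads, are the genes that depth limits.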

Other observations

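For the I-E molecule, the beta chain H2-Eb1 had reads and the alpha chain entry H2-Ea had none. H2-Ea, the alpha chain that would pair with H2-Eb1, was listed at 0 in all 12 libraries, while H2-Eb1 reached a mean of 87.7 TPM. A further entry that was looked for, H2-Ea-ps, was absent from the deposited genes. Whether the alpha chain had reads under that entry therefore cannot be told. H2-Eb2 stayed at group means of 0.0343 to 0.153 TPM. H2-Oa and H2-Ob, the chains of the H2-DM inhibitor H2-DO, had group means of 0.152 to 0.364 and 0.0851 to 0.338 TPM, under every group mean of H2-DMa and H2-DMb1.

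Irf4, another factor that acts on class II genes, was under the filter, at group means of 0.25 to 0.534 TPM. The tested genes nearest to Ciita by the likeness measure were Akna, Pik3cb, Susd6 and Znrf1 (0.0829 to 0.0894). The member nearest to Ciita was Cd86, at rank 3565 of 11282, and with a pseudocount of 0.1 it was at rank 3244.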
